A study of Homo sapiens with 4 samples.

Results

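Extracellular proteolysis was followed in PC3 cells through 35 genes for metalloproteases, the plasminogen system, membrane serine proteases and their inhibitors. The members were 77 probe sets, of 54675 on the array, that the platform table assigned to exactly 1 of these 35 genes. PC3 is a human cell line grown from a bone metastasis of a prostate cancer. Total RNA was taken 48 h after transfection with 40 nM of siRNA against the transcription factor COUP-TFII, a nuclear receptor with no known natural hormone, or with 40 nM of control siRNA, on 2 arrays each. The comparison asks which transcripts differ when COUP-TFII is targeted, in 1 cell line with a transient knockdown. The labels name neither the siRNA sequences nor separate transfections, so each p-value rests on array-to-array spread that may be technical. In RNA of whole cultures, fewer expressing cells and less RNA per cell cannot be told apart.

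Matrix metalloproteases (MMPs) are zinc enzymes that cut collagens, gelatin and other matrix proteins, and most are made as inactive precursors. ADAM proteases are related membrane proteins that release growth factors, cytokines and adhesion proteins from the cell surface, and the tissue inhibitors of metalloproteases (TIMPs) block the zinc site. In the plasminogen system, the activators urokinase (PLAU) and tissue-type activator (PLAT) turn plasminogen into plasmin, the receptor PLAUR holds urokinase at the cell surface, and serpins inactivate the activators. Matriptase (ST14) and hepsin (HPN) are serine proteases of the epithelial membrane, and the Kunitz-type proteins SPINT1 and SPINT2 inhibit them. These enzymes are studied in prostate cancer for their part in invasion and bone metastasis.

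The 4 arrays had median intensities of 31.7 to 32.9, and replicate arrays correlated across probe sets at r = 0.988 for COUP-TFII siRNA and 0.987 for control siRNA on the log2 scale. As a sign of RNA integrity, the ACTB controls near the 3′ and the 5′ end had ratios of 1.42 and 1.46 on the COUP-TFII siRNA arrays, against 1.52 and 1.83 on the control arrays. These did not overlap, and their part in the results was not tested. The same ratio for GAPDH was 0.994 and 0.986 on the COUP-TFII siRNA arrays, against 0.957 and 0.986 on the control arrays. All 5 markers of the line (KRT8, KRT18, KRT19, EPCAM and VIM) lay above the median of all genes, with summed intensities of 30867 to 30975 on COUP-TFII siRNA arrays and 30764 to 31450 on control arrays. Of these KRT8 (0.16) and KRT18 (0.13) passed as higher and EPCAM (−0.24) and VIM (−0.36) as lower, given as log2 fold changes, and their part in the results was not tested. All 4 measured leukocyte markers lay below it, with sums of 66.4 to 76.7 and 65.4 to 76.2. Of 6 fibroblast markers 5 lay below it, and COL1A1 passed as higher, so that the list summed to 1109 to 1117 against 712 to 808. Of 4 endothelial markers 3 lay below it and none passed, with sums of 219 to 267 against 192 to 194. Of 4 prostate luminal markers 3 were measured, 2 of them below it, and TMPRSS2 passed as higher, with sums of 427 to 431 against 176 to 180.3.

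After COUP-TFII siRNA, PLAT, the serpin gene SERPINE2 and the gelatinase gene MMP9 were higher, and the membrane protease genes ADAM12 and ADAM8 were lower, while most other members differed little or not beyond their spread. Each gene was represented by its brightest probe set, those open to cross-hybridisation apart, on the log2(intensity + 16) scale, and log2 fold changes are COUP-TFII siRNA over control siRNA. Of the 35 genes 8 passed as higher, 5 as lower and 22 did not pass an adjusted p of 0.05 (limma, Benjamini-Hochberg over 19775 genes). Among all genes 23% passed, 12.7% as higher and 10.3% as lower. The members were also bright, and 26 of them lay at or above the median of all genes. Of these 26, 11 passed (42.3%), and of all genes that bright 42.1% passed, so the share of calls was near that of all genes of this brightness. The 9 dimmer members held 2 calls (MMP7 and MMP16), where 3.97% of all dimmer genes passed. The median log2 fold change was 0.04 for the members and 0.01 for all genes. Intensities of the groups did not overlap for 21 of the 35 members, against 57.5% of all genes. The members that passed changed in both directions. Of the 35 members 4 passed with a log2 fold change of at least 1 in size, against 517 of all 19775 genes (2.61%). Put over the genes that passed, these are 4 of 13 members and 517 of 4558 genes. Of the 4, MMP16 was dim, and 1 of its 5 probe sets passed in a test of all probe sets. These shares were not compared at like brightness.

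The 8 and 5 calls rested on all 4 arrays. Leaving out any 1 array leaves a group without a replicate. Fewer genes then passed in both directions, among all genes as well as among the members. Scaling to the median of housekeeping genes shifted all genes upwards, by 0.29 on the log2 scale at their median. The 12 housekeeping genes measured had a median log2 fold change of −0.04 before it and 0.26 after it. The scaling gave 19 higher and 3 lower members, or 86.4% of calls higher against 61.5%. Among all genes that passed, 88.7% were higher with it, against 55.3% without, so the move was not particular to the members. PLAT, SERPINE2, ADAM8 and ADAM12 were the only members that passed in every alternative tried.

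**Figure D1:**
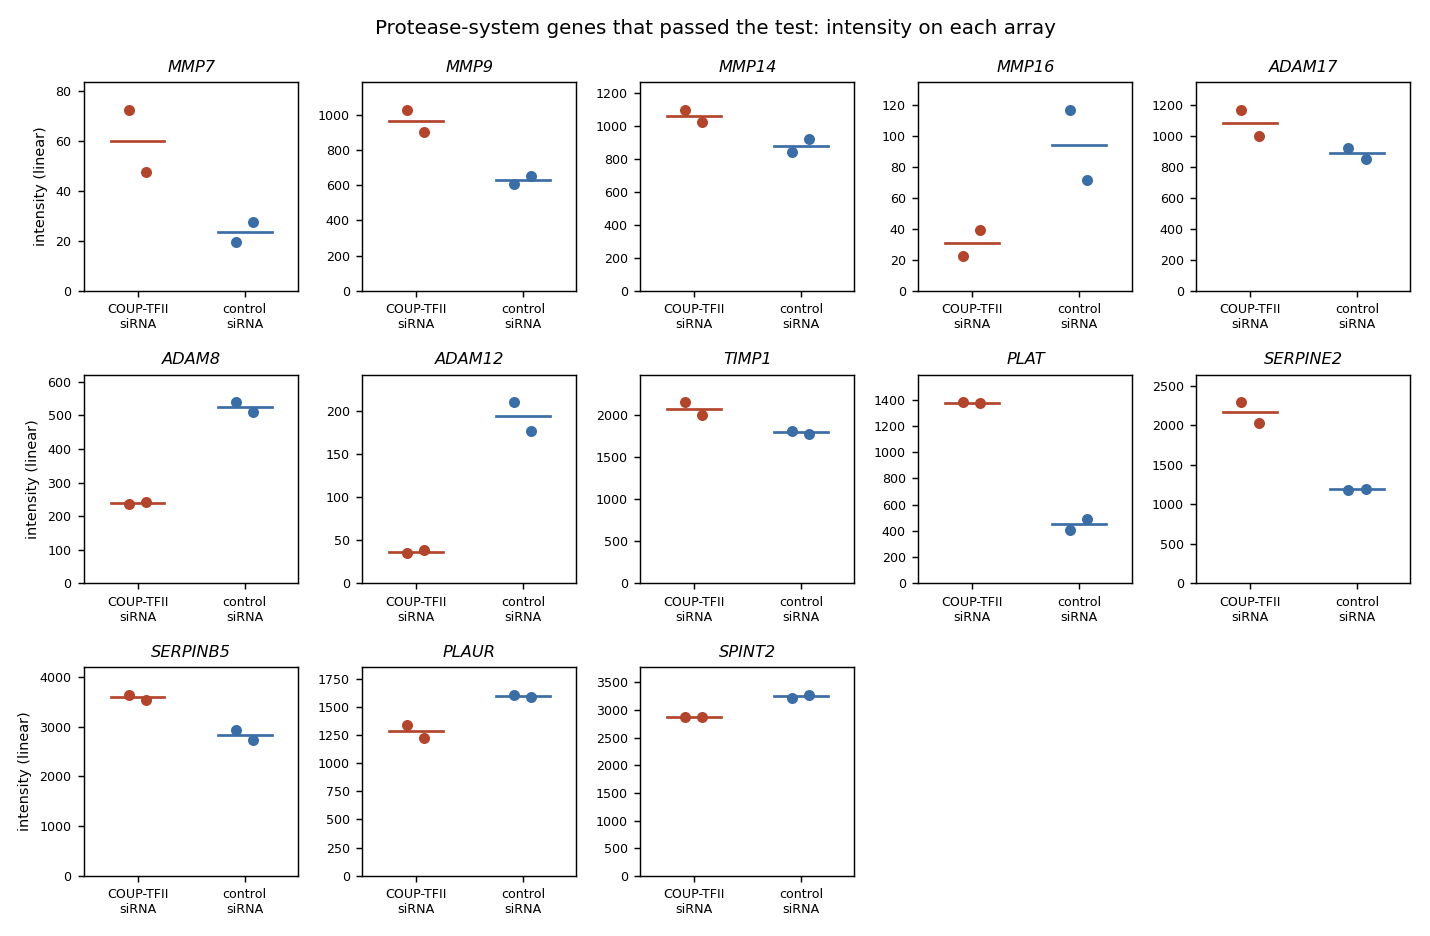
Intensity (linear, each axis from 0) on each array for the 13 genes that passed, with COUP-TFII siRNA left of control siRNA, points for arrays and bars for the mean of 2. The arrays of the groups do not overlap in any panel, but the genes were picked because they passed, and 57.5% of all genes did not overlap. The ratio of means is 5.28 (control over COUP-TFII siRNA) for ADAM12 and 3.06 (COUP-TFII siRNA over control) for PLAT. SPINT2, lower here, had a log2 fold change of 0.12 under housekeeping centring, which shifted all genes upwards.

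The plasminogen system held the largest rise among the members. PLAT, the tissue-type activator, had intensities of 1383 and 1375 on the COUP-TFII siRNA arrays, against 409.8 and 493 on the control arrays. Its mean was 1379 ± 5 in COUP-TFII siRNA cells and 451 ± 59 in control cells (SD, n = 2 each), a ratio of 3.06. The log2 fold change was 1.58 ± 0.09 (SE) at a limma adjusted p of 6.27e-06, and 1.46 to 1.88 over all alternatives. The spread within each group was small beside this difference, and the single probe set of PLAT carries the whole result.

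PLAU, which encodes urokinase, the other activator, did not follow. It had 9533 and 9475 on the COUP-TFII siRNA arrays, against 9134 and 9360 on the control arrays. Its log2 fold change of 0.04 had a 95% interval of −0.05 to 0.13, so a change of the size seen for PLAT lies outside it. The second PLAU probe set had a log2 fold change of 0.14 and did not pass either.

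PLAUR, the urokinase receptor, was lower on all of its probe sets. On the brightest it had 1343 and 1226 in COUP-TFII siRNA cells, against 1609.7 and 1589 in control cells, a log2 fold change of −0.31 ± 0.06 (SE), at a limma adjusted p of 0.00632. When all 54613 probe sets were tested together, the 3 PLAUR probe sets all passed as lower. Of all probe sets 12.2% passed in that test, 6.51% as higher and 5.67% as lower, and of the 77 probe sets of members 5 passed as higher and 8 as lower. The dimmest of them had the largest change, with 198 and 176 against 286 and 302 and a log2 fold change of −0.61 ± 0.10 (SE), at a limma adjusted p of 0.00717. With 1 array left out, PLAUR passed only without COUP-TFII siRNA replicate 1 (limma adjusted p = 0.0211), and the other fits gave up to 0.102. Housekeeping centring, which shifted all genes upwards by 0.29, left a log2 fold change of −0.02 (limma adjusted p = 0.767).

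Both serpins rose. SERPINE2, also called protease nexin, inhibits thrombin and both plasminogen activators. It had 2295 and 2032 on the COUP-TFII siRNA arrays, against 1183 and 1194 on the control arrays, a mean of 2164 ± 186 against 1189 ± 8 (SD, n = 2 each). The log2 fold change was 0.85 ± 0.07 (SE) at a limma adjusted p of 3.64e-05, and 0.56 when both of its probe sets were averaged. SERPINB5, known as maspin, is a serpin that does not act as a protease inhibitor in the usual way and is studied as a suppressor of invasion. It had 3643 and 3528, against 2940.0 and 2735, a log2 fold change of 0.34 ± 0.05 (SE), at a limma adjusted p of 0.00188. This value is carried by 1 of its probe sets, since the second was dim and did not pass, and averaging both gave 0.03 (limma adjusted p = 0.904). Without control replicate 2 the limma adjusted p of SERPINB5 was 0.0692.

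Of the 9 secreted MMPs 2 rose, none fell and the other 7 missed the threshold. The 2 calls are 22.2% of the list, near the 23% of all genes, and the median log2 fold change of the 9 genes was 0.07. MMP9, the larger gelatinase, had 1030.3 and 903 on COUP-TFII siRNA arrays, against 608 and 653 on control arrays, a ratio of means of 1.53. The log2 fold change was 0.60 ± 0.08 (SE), at a limma adjusted p of 0.000775. Its log2 fold change lay between 0.51 and 0.69 with any 1 array left out and passed each time, while 1 prior variance for all genes gave a limma adjusted p of 0.0573. MMP7, or matrilysin, a small MMP of epithelial cells, had 72.5 and 47.6, against 19.5 and 27.3. The groups did not overlap, but the values lay below the median intensity of all genes in both. The log2 fold change of 0.94 ± 0.23 (SE) had a limma adjusted p of 0.019, and leaving out any 1 array took it past the threshold, to between 0.0631 and 0.191.

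The collagenase gene MMP13 had the largest change among the secreted MMPs that did not pass. It had 127 and 79.8 on COUP-TFII siRNA arrays, against 62.1 and 55.3 on control arrays, a log2 fold change of 0.65 with a 95% interval of 0.17 to 1.13 (limma adjusted p = 0.0583). MMP1, the interstitial collagenase, and MMP10, a stromelysin, were bright and their intervals were narrow. MMP1 had 1857 and 1530.2, against 1913 and 1692, with an interval of −0.31 to 0.12 on the log2 scale. MMP10 had 724 and 613, against 598 and 570.5, with an interval of −0.02 to 0.39. The gelatinase gene MMP2 (−0.04), the stromelysin genes MMP3 (0.06) and MMP11 (0.07) and MMP19 (−0.36) did not pass on any probe set.

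MMP7 and MMP10 are printed together because both carry the AP-1 motif and a TATA box at nearly the same distance from their start, and only MMP7 passed. Promoter windows of 300 bases, from 250 before to 50 after the start of the gene, came from RefSeq (GRCh38.p14) and covered 22 of the 35 members. The remaining members had no window and were not searched. A member not named below may therefore lack a window rather than a motif. The AP-1 motif TGANTCA, which reads the same on both strands, was found in 5 of these 22 genes (MMP7, MMP10, PLAUR, SERPINB5 and SPINT1), against 9.37% of 27305 genes with at least 1 window and 7.71% of 35116 windows. A gene counts once if any of its windows holds the motif, and the 22 members had 26 windows. The core motif of nuclear receptors, AGGTCA, was searched on both strands and found in 4 (SERPINE2, TIMP4, MMP15 and SPINT1), against 16.5% of genes and 13.8% of windows. TATAAA, on either strand, was found in 3 (MMP7, MMP10 and BSG), against 13.99% of genes and 11.5% of windows. The matches of these motifs did not overlap each other, and a match is a stretch of letters, not a bound site. Stretches around the match follow, 5′ to 3′ on the strand of the gene, for the 4 members with a match that passed and for MMP10, with the motif and, for MMP7 and MMP10, the TATA box in capitals.
MMP7: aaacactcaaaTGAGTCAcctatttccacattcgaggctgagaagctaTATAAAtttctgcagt
MMP10: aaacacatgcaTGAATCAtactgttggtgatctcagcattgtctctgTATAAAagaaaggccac
PLAUR: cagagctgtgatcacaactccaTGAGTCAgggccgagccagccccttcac
SERPINB5: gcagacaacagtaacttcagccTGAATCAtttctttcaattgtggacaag
SERPINE2: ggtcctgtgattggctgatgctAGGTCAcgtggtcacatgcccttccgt
The MMP7 stretch lies at chr11:102530762-102530825 and the MMP10 stretch at chr11:102780643-102780706, both on the minus strand, and in both the AP-1 motif begins 67 bases before the start. The PLAUR stretch lies at chr19:43670328-43670377 on the minus strand with the motif 186 bases before the start. The SERPINB5 stretch lies at chr18:63476790-63476839 on the plus strand with the motif 146 bases before the start. The SERPINE2 stretch lies at chr2:224031543-224031591 on the minus strand, upstream of 1 of the 2 starts listed for this gene, with AGGTCA 91 bases before it. Members with the AP-1 motif were among those that rose (MMP7, SERPINB5), among those that fell (PLAUR) and among those that did not pass (MMP10, SPINT1).

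Of the 4 membrane-type MMPs, 1 rose and 1 fell, where 23% of all genes passed. Neither passed when the probe sets of each gene were averaged. MMP14, the membrane-type MMP that activates the MMP2 precursor, had 1099 and 1021 on COUP-TFII siRNA arrays, against 839 and 918 on control arrays. The log2 fold change of 0.27 ± 0.07 (SE) had a limma adjusted p of 0.026, which was 0.0799 to 0.222 when 1 array was left out. Averaging its 4 probe sets gave 0.15 (limma adjusted p = 0.268), and none of the 4 passed when all probe sets were tested together.

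MMP16, another membrane-type enzyme, had 22.4 and 39.4 on COUP-TFII siRNA arrays, against 117 and 71.3 on control arrays, a log2 fold change of −1.22 ± 0.26 (SE), at a limma adjusted p of 0.00906. The groups did not overlap, yet the control arrays differed from each other by more than the COUP-TFII siRNA arrays did. Only 1 of its 5 probe sets passed, the other 4 had log2 fold changes of −0.28 to 0.10, and their average with it was −0.29 (limma adjusted p = 0.364). With 1 array left out, MMP16 passed only without control replicate 2 (limma adjusted p = 0.0419). The other 3 fits gave 0.0626 to 0.153.

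MMP15 and MMP24, also membrane-type, were dim and did not pass, and the larger change was that of MMP24 at −0.41, with a 95% interval of −0.99 to 0.18. BSG, also called basigin or EMMPRIN, a surface glycoprotein that induces MMPs in neighbouring cells, had 515 and 489, against 485 and 504, with an interval of −0.15 to 0.19.

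**Figure D2:**
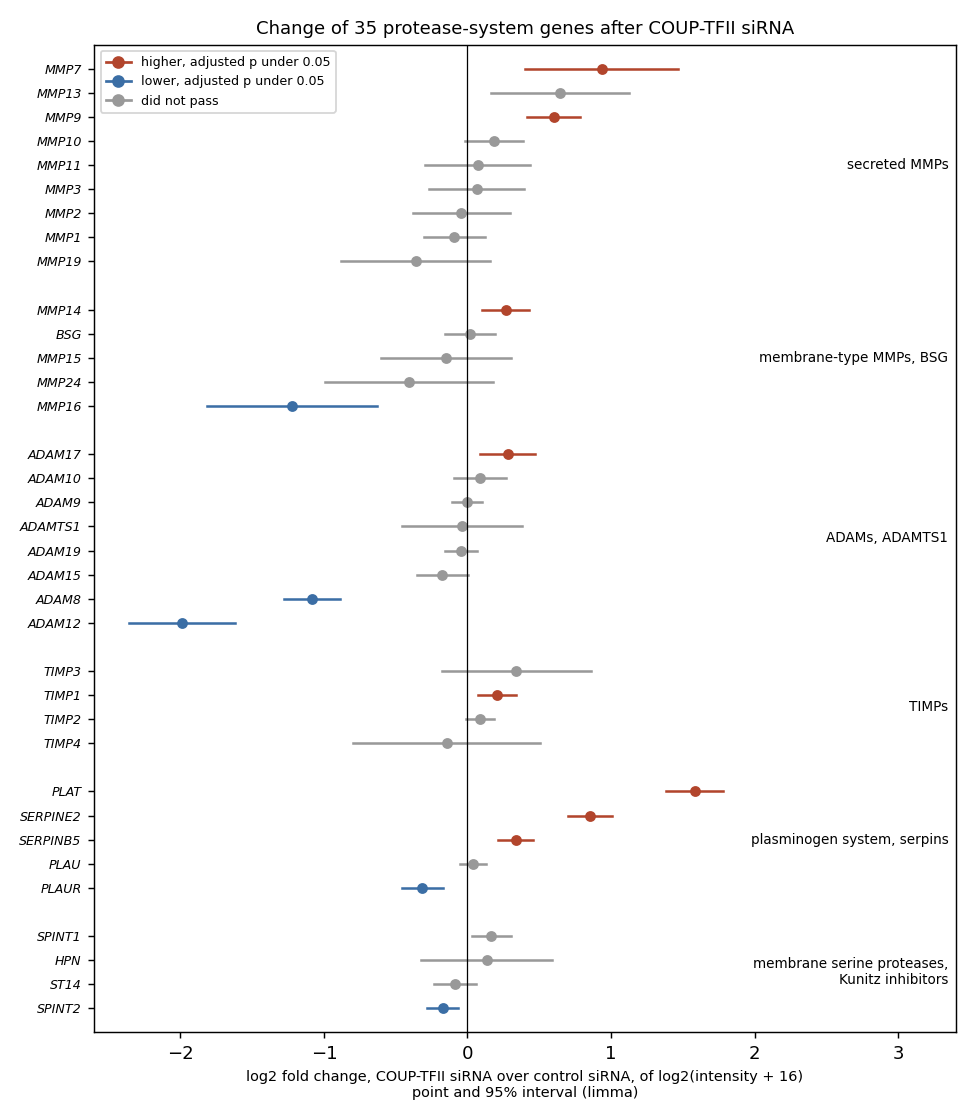
Log2 fold change of log2(intensity + 16), COUP-TFII siRNA over control siRNA, with its 95% limma interval, for the 35 genes by role, coloured by whether they passed as higher or lower. PLAT lies farthest to the right at 1.58 and ADAM12 farthest to the left at −1.99. SPINT2, drawn as lower, turned to 0.12 under housekeeping centring, which shifted all genes upwards.

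Among the ADAM proteases ADAM12 and ADAM8 fell, and the fall of ADAM12 was the largest of all members. ADAM12, which cleaves binding proteins of insulin-like growth factors and the EGF receptor ligand HB-EGF, had 34.8 and 38.7 on COUP-TFII siRNA arrays, against 210.4 and 177 on control arrays. The mean was 36.7 ± 2.8 in COUP-TFII siRNA cells and 194 ± 23 in control cells (SD, n = 2 each), a ratio of 5.28 for control over COUP-TFII siRNA. The log2 fold change was −1.99 ± 0.16 (SE), at a limma adjusted p of 4.39e-05, and with 1 array left out it lay between −2.10 and −1.87.

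Of the 5 ADAM12 probe sets 3 passed as lower when all probe sets were tested together. The second of these had 48.0 and 63.0 against 156 and 173, and the third 13.1 and 27.5 against 89.3 and 97.4. Their log2 fold changes were −1.34 and −1.62. The remaining pair, which did not exceed an intensity of 40.8 on any array, had 0.53 and 0.02 and did not pass. Averaging all 5 gave −0.88 (limma adjusted p = 0.00719), less in size by more than 1.5 times.

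ADAM8, a protease first described in leukocytes and found in many carcinomas, had 235 and 243 on COUP-TFII siRNA arrays, against 540 and 509 on control arrays, without overlap and with a small spread. The mean was 239 ± 6 in COUP-TFII siRNA cells and 524 ± 22 in control cells (SD, n = 2 each), and the log2 fold change was −1.08 ± 0.09 (SE), at a limma adjusted p of 3.81e-05. The second probe set was dim, at 14.4 and 14.9 against 27.6 and 35.6, with a log2 fold change of −0.63 that did not pass.

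ADAM17, the enzyme that releases TNF and ligands of the EGF receptor, was slightly higher. It had 1170.2 and 998 on COUP-TFII siRNA arrays, against 920.2 and 852 on control arrays, a log2 fold change of 0.28 ± 0.08 (SE), at a limma adjusted p of 0.041. Its 3 probe sets had similar log2 fold changes, of 0.28, 0.28 and 0.33. Tested among all probe sets, only the one open to cross-hybridisation passed (limma adjusted p = 0.0221). With 1 array left out, ADAM17 passed only without COUP-TFII siRNA replicate 2 (limma adjusted p = 0.0423), and the other fits gave up to 0.308.

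ADAM9, ADAM10 and ADAM19 were bright and had narrow intervals that held 0. ADAM9 had 4220.1 and 4294 on COUP-TFII siRNA arrays, against 4345 and 4178 on control arrays, with a 95% interval of −0.11 to 0.10 on the log2 scale. ADAM10, the enzyme that cuts Notch receptors and the amyloid precursor protein, had an interval of −0.09 to 0.27, and ADAM19 one of −0.16 to 0.06. ADAM15 was at 443 and 475 against 509 and 531, a log2 fold change of −0.18 (limma adjusted p = 0.159). The secreted ADAMTS1 was dim, with an interval of −0.46 to 0.38.

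**Figure D3:**
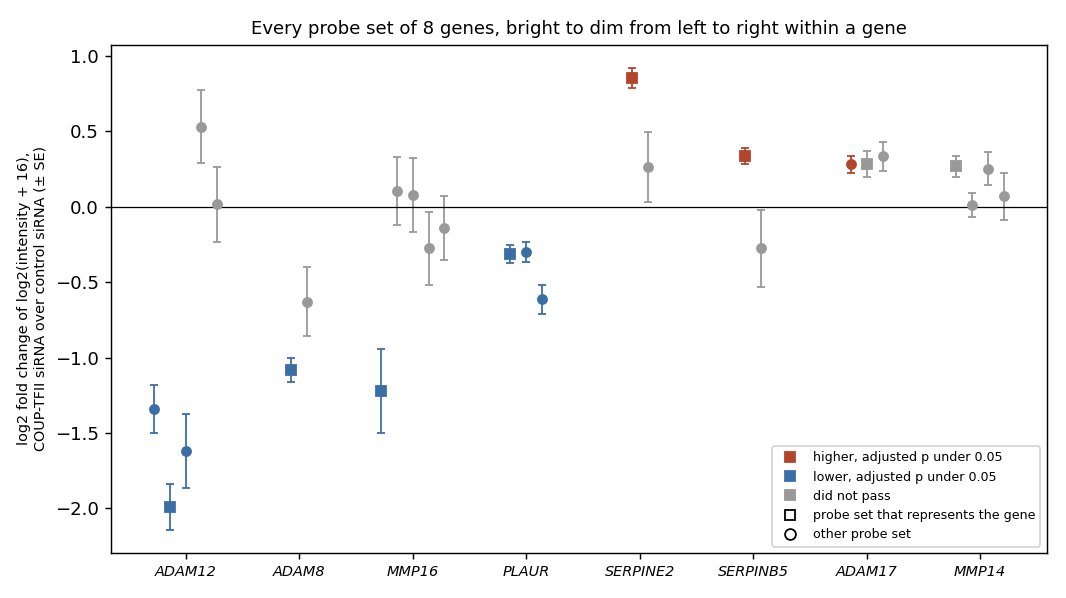
Log2 fold change (± SE, y axis) of every probe set of 8 genes (x axis), COUP-TFII siRNA over control siRNA, from the test of all probe sets, with squares for the probe set that represents the gene and circles for others. ADAM12 and PLAUR have 3 probe sets each that passed as lower, and MMP16 has 1 of 5.

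Among the TIMPs, TIMP1 rose slightly and the other 3 did not pass (25% passed, against 23% of all genes). TIMP1 had 2157 and 1998 on COUP-TFII siRNA arrays, against 1817 and 1778 on control arrays, a log2 fold change of 0.21 ± 0.06 (SE), at a limma adjusted p of 0.0303. With 1 array left out it passed only without COUP-TFII siRNA replicate 2 (limma adjusted p = 0.0447), and the other fits gave up to 0.233. TIMP2, which inhibits MMPs and also takes part in MMP2 activation by MMP14, had 5095 and 5064, against 4805 and 4766. These groups did not overlap, and its log2 fold change of 0.09 (interval −0.01 to 0.18) did not pass. TIMP3 and TIMP4 were dim on all of their 5 probe sets, and TIMP3 had 18.3 and 11.2, against 7.1 and 9.3.

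Of the membrane serine proteases and Kunitz inhibitors, SPINT2 alone passed (25% of the list, against 23% of all genes). SPINT2 had 2880 and 2882 on COUP-TFII siRNA arrays, against 3216 and 3282 on control arrays, a log2 fold change of −0.17 ± 0.05 (SE). This turned to 0.12 after housekeeping centring, which shifted all genes upwards by 0.29. Its limma adjusted p of 0.0269 was 0.0885 to 0.227 when 1 array was left out. SPINT1 had 1072 and 1099.9, against 984 and 947, a log2 fold change of 0.17 (limma adjusted p = 0.0839). ST14, the protease that both inhibit, had 1889 and 1685, against 1926 and 1872, with a 95% interval of −0.24 to 0.06. HPN, hepsin, was at 112 and 101 against 75.7 and 120.4, and the control arrays spanned both COUP-TFII siRNA values.

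The wider protease system was read from 124 further genes, of which 115 had a single-gene probe set. Of these 17 passed as higher and 9 as lower, or 22.6%, against 23% of all genes. The list was dimmer than all genes, since 77 of the 115 lay below the median of all genes. There 3.97% of all genes passed, against 42.1% at or above it. After housekeeping centring 36 passed as higher and 3 as lower, where 37.6% and 4.78% of all genes did. Of the falls named here those of ADAM22 and ENO1 no longer passed. None of the 9 other MMPs measured passed, and all 9 were dim. Of 22 other ADAMTS genes and relatives, 1 rose and 2 fell (13.6% passed, against 23% of all genes), and 18 of the 22 were dim. ADAMTS15, a secreted protease of proteoglycans, had 1304 and 1254 on COUP-TFII siRNA arrays, against 395 and 391 on control arrays, a log2 fold change of 1.66 ± 0.07 (SE), at a limma adjusted p of 1.75e-06. ADAMTS3, which processes procollagens and VEGF-C, was at 199.96 and 192 against 358 and 302, a log2 fold change of −0.70. In the rest of the plasminogen system 1 of 13 rose and 1 fell (15.4% passed, against 23% of all genes), and 8 of the 13 were dim. SERPINF2, the plasmin inhibitor, had a log2 fold change of 0.60, at 73.8 and 64.04 against 38.9 and 41.1 and a limma adjusted p of 0.045. This gene was dim, and its only probe set did not pass when all probe sets were tested together. ENO1, a glycolytic enzyme that also binds plasminogen at the cell surface, had −0.30. Of 12 other ADAMs measured, ADAM22, which lacks protease activity, passed at −0.87 on a dim probe set, with 3.6 and 16.4 against 28.7 and 31.7 and a limma adjusted p of 0.0486. None of its 8 probe sets passed when all probe sets were tested together.

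Among the remaining proteases and inhibitors TMPRSS2 and SERPINB3 rose and DPP4 fell. Of 23 other membrane and trypsin-like serine proteases 4 rose and 2 fell (26.1% passed, against 23% of all genes), and 16 of the 23 were dim. TMPRSS2, a membrane serine protease of the prostate, had 391 and 392 on COUP-TFII siRNA arrays, against 132 and 157 on control arrays, a log2 fold change of 1.35 ± 0.11 (SE), at a limma adjusted p of 4.75e-05. DPP4, a dipeptidyl peptidase of the cell surface, had 127 and 103 against 249 and 250.4, a log2 fold change of −1.03. Of 22 other protease inhibitors 7 rose and 1 fell. These are 36.4% of the list, of which 11 genes were dim, against 23% of all genes, 42.1% of all bright genes and 3.97% of all dim genes. SLPI, a secreted inhibitor of elastase, had 1578 and 1572 against 867 and 862, a log2 fold change of 0.85. SERPINB3, an inhibitor of cathepsins, had 42.3 and 40.8 against 11.8 and 11.2, and a log2 fold change of 1.07. This gene was dim, and 1 of its 2 probe sets passed when all probe sets were tested together. These 2 lists had medians of 0.06 and 0.04, near the 0.01 of all genes, and 17 of 23 and 14 of 22 genes did not pass.

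**Figure D4:**
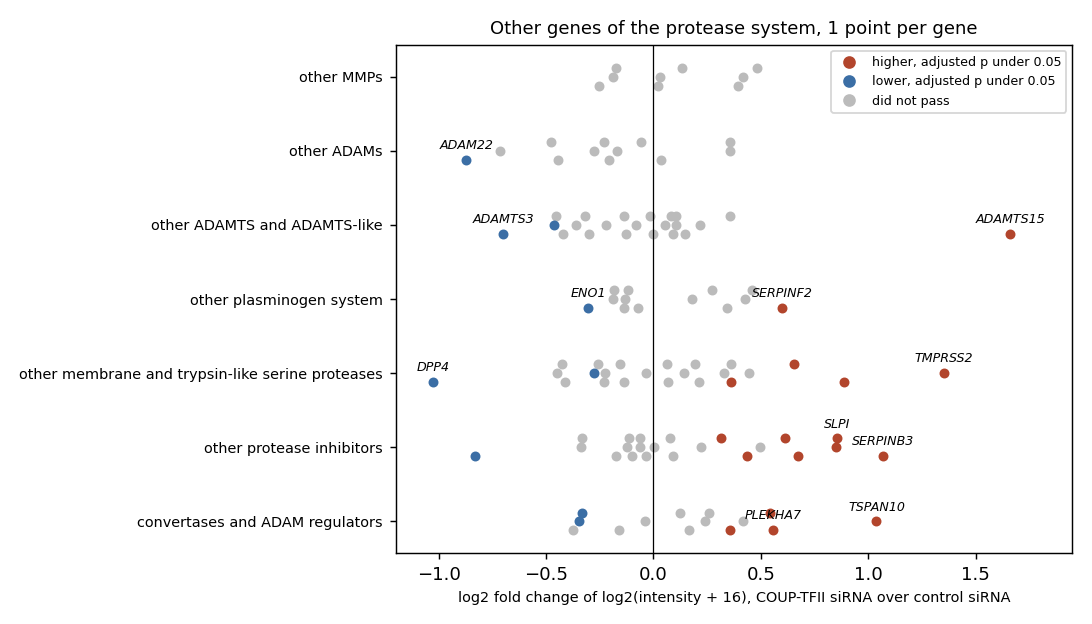
Log2 fold change (x axis), COUP-TFII siRNA over control siRNA, of 115 further genes of the protease system in 7 lists, 1 point per gene, with up to 2 passing genes of largest change named in each. ADAMTS15 lies farthest to the right at 1.66 and DPP4 farthest to the left at −1.03.

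**Figure D5:**
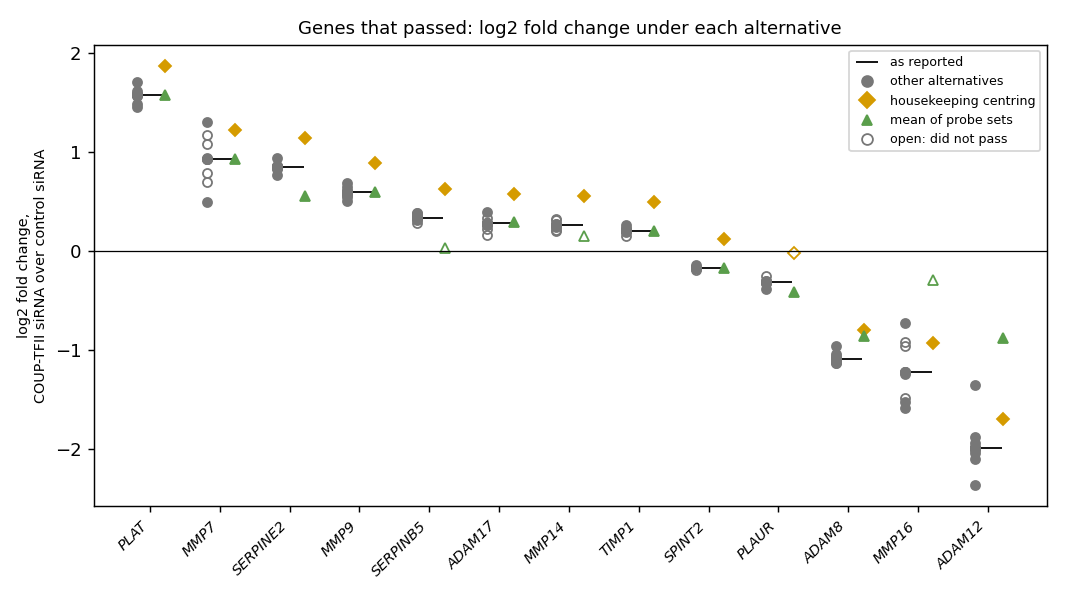
Log2 fold change (y axis), COUP-TFII siRNA over control siRNA, of the 13 genes that passed, as reported (black bar) and under each alternative (points, open where the adjusted p was 0.05 or more). PLAT, SERPINE2, ADAM8 and ADAM12 have no open point. Under housekeeping centring, which shifted all genes upwards, SPINT2 turned to 0.12 and PLAUR came to −0.02.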

How the data were processed

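The authors deposited linear intensities per probe set, between 0.61 and 15890, from 1-colour Affymetrix arrays labelled by 3′ IVT amplification, per the labels' protocols. How they were summarised, background-corrected or normalised is not stated in the sources used here. Array medians differed by at most 3.66% and no scaling was applied. No detection calls came with the values, and precision is limited by the number of arrays.

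The probe table named 1 gene for 41091 probe sets, several for 1801 and none for 11721, and 62 control probe sets were not tested. A RefSeq table (GRCh38.p14) gave current symbols by Entrez identifier for 41037. Each gene was represented by its single-gene probe set of highest mean, with _x_at probe sets (open to cross-hybridisation) used only where there was no other. Of the 35 members, 17 were represented by an _s_at or _a_at probe set, which can match several transcripts. Log2(intensity + 16) was fitted in R 4.3.3 with limma 3.58.1 (lmFit, eBayes with an intensity trend, no replicate block, 2 residual degrees of freedom and 8.78 after moderation), with Benjamini-Hochberg adjustment over all genes. This scale understates changes of dim genes. A second fit took all 54613 probe sets. The code was tested on simulated data. Figures were drawn with matplotlib 3.10.9.

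The members, the lists of further genes and the alternatives were chosen with earlier results of these data known. The rule for named genes took all members that passed, the largest change among the others of each role, and up to 2 passing genes of largest change from each further list. MMP1, MMP2, MMP3, MMP10, MMP11, MMP19, BSG, ADAM9, ADAM10, ADAM19, ADAMTS1, TIMP2, ST14 and HPN were described beside them to account for every member. The targeted transcript is not reported here.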

Additional observations from a re-analysis of the deposited data

How the results depend on the processing

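Of 180 values refitted for the 13 genes that passed, 141 kept direction and call, 38 kept direction without passing and 1 reversed, SPINT2 at 0.12 under housekeeping centring (limma adjusted p = 0.0403). Counts of members were 19 higher and 3 lower with housekeeping centring, where 37.6% and 4.78% of all genes passed in these directions. They were 2 in each direction when all genes shared 1 prior variance, where 3.81% and 4.12% passed. They were 4 higher at a threshold of 0.01. With 1 array left out they were 3 to 6 higher and 2 to 3 lower. Member probe sets gave 5 higher and 8 lower, and the number higher was 10 with median centring, 9 with quantile normalization, 29 with housekeeping centring, 12 with dim probe sets left out, 1 with 1 prior variance and 1 to 3 with an array left out. The number lower was 2 with 1 prior variance, 5 at a threshold of 0.01 and 1 to 5 with an array left out. With an array left out fewer of all probe sets passed too. Leaving out an array leaves a group without a replicate, and leaving out dim probe sets lowers the number tested. What moved the counts in each setting was not tested. Housekeeping centring took the median of its own 12 measured genes to 0.26, against −0.04 before. Replicate numbers paired no deviations (correlation 0.017 across genes), and a replicate block gave 9 higher and 5 lower members, and 10 higher and 9 lower probe sets.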

Other observations

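Genes that process or steer the ADAM and MMP enzymes changed in both directions, with 4 of 14 higher, 2 lower and 8 not passing (42.9% passed, against 23% of all genes), and 11 of the 14 lay at or above the median of all genes, where 42.1% passed. TSPAN10, one of the tetraspanins that accompany ADAM10, had 251 and 187.5 on COUP-TFII siRNA arrays, against 103 and 92.1 on control arrays, a log2 fold change of 1.04 ± 0.16 (SE), at a limma adjusted p of 0.00152. PLEKHA7, a junction protein linked to ADAM10 at the cell surface, had 353 and 319 against 238 and 209, a log2 fold change of 0.56. The genes that fell, PCSK7 and TSPAN5, named after their values were seen, did not pass after housekeeping centring.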
